A study of Mus musculus with 12 samples.

Results

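The 10 genes described here serve the cell's defence against oxidants: Nfe2l2, which encodes the transcription factor NRF2, 6 enzyme genes known as NRF2 targets (Nqo1, Hmox1, Gclc, Gclm, Txnrd1 and Srxn1), and the antioxidant enzyme genes Sod2, Sod3 and Gpx3. They were chosen by name with earlier results of these data known, so their counts set beside all genes only describe them. The value of each gene was the read count of its RefSeq transcript with the highest total count. The tables held 23575 genes, of which 14323 passed a filter on low counts, the 10 genes among them. RNA was measured by RNA-seq, and DNA methylation at CpG sites by enhanced reduced representation bisulfite sequencing (ERRBS), which reads restriction fragments rich in CpG.

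All samples were primary chondrocytes from cartilage of the femoral head and the tibial plateaus of C57BL/6J pups 5 to 6 days old, and the labels name no altered allele. The cells were first expanded as a monolayer in DMEM/F12 medium with 10% fetal bovine serum and antibiotics. They were then kept as pellets in this medium with ascorbic acid and ITS, a supplement of insulin, transferrin and selenium, a culture that the series uses to drive hypertrophy. Pellets were collected at Week 1 (day 7) or Week 3 (day 21), with 3 RNA-seq and 3 ERRBS libraries per week and 12 libraries in all. Both weeks share the monolayer step, the serum and the supplement, and no cartilage taken straight from the animal was analysed here. Nothing in the labels tells whether a replicate is its own culture or its own animal, or whether pups were pooled. The p-values therefore cover only the spread between these libraries, which may be technical.

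NRF2 is a basic leucine zipper factor of the cap'n'collar family. The adaptor KEAP1 holds it in the cytoplasm and hands it to a CUL3 ubiquitin ligase for breakdown, and oxidants or electrophiles that modify cysteines of KEAP1 let NRF2 accumulate. In the nucleus NRF2 pairs with small MAF proteins and binds antioxidant response elements, where the repressor BACH1 can compete with it. Much of its control therefore acts on the protein, which RNA-seq does not measure. Its targets make glutathione, reduce quinones, break down heme and keep thioredoxin and peroxiredoxins reduced, while superoxide dismutases and glutathione peroxidases remove superoxide and peroxides directly. In the growth plate, reactive oxygen species are known to promote chondrocyte hypertrophy.

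Promoter windows of 300 bases (250 before to 50 after an annotated start) were read from the RefSeq promoter table of build GRCm38.p6, which held 7 of the 10 genes: Nfe2l2, Nqo1, Gclm, Txnrd1, Srxn1, Sod2 and Gpx3. The core of the antioxidant response element, TGACNNNGC, was searched on both strands, and 12.4% of 32851 windows of the same length held it. The windows counted for this share do not cover every chromosome. At the counted start it occurred in Nfe2l2, Gclm and Srxn1, and at an inner start of Txnrd1. The 4 windows are printed below, 5′ to 3′ on the strand of the gene, because they hold the motif through which NRF2 is known to act, together with the window of Gpx3, the gene of the 10 whose RNA rose. Capitals mark matches to TGACNNNGC and, in Srxn1, also to TGANTCAGC. In Gpx3 capitals mark the 3 CpG sites covered in all 6 ERRBS libraries.
Nfe2l2, chr2:75704614-75704913, minus strand: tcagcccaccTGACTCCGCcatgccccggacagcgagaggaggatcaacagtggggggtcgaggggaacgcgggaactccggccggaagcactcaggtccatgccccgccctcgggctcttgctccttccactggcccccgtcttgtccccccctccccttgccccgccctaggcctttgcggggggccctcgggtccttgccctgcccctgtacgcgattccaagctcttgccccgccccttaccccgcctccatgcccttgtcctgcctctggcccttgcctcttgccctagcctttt
Gclm, chr3:122245307-122245606, plus strand: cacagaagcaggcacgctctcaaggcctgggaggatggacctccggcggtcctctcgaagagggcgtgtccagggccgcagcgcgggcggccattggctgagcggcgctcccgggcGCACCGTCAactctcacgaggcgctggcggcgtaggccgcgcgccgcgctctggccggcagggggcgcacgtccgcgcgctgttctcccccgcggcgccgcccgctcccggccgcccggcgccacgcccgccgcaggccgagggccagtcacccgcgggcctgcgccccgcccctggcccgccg
Srxn1, chr2:152105274-152105573, plus strand: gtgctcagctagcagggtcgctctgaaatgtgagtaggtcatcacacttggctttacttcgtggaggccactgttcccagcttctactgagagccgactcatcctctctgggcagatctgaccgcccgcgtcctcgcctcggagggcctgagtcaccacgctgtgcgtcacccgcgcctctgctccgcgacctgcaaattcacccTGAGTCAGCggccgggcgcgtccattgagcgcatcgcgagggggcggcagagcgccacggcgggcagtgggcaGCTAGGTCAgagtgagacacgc
Txnrd1 inner start, chr10:82858956-82859255, plus strand: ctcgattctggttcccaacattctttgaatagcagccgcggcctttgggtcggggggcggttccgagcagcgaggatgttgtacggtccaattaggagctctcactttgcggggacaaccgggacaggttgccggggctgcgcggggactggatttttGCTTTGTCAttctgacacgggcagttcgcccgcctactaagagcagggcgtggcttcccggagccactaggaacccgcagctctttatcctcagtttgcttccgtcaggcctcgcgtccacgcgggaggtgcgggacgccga
Gpx3, chr11:54902604-54902903, plus strand: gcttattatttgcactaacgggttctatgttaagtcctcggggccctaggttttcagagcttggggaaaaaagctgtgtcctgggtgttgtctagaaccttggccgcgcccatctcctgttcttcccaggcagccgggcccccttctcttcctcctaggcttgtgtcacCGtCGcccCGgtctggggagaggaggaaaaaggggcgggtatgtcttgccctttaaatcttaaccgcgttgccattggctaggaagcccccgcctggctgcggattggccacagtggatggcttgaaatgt

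In Nfe2l2 the match TGACTCCGC lies at -240 to -232 relative to the start. The Gclm match is on the opposite strand at -134 to -126, where it reads TGACGGTGC. At the inner start of Txnrd1 the match is also on the opposite strand, at -92 to -84 from that start, and reads TGACAAAGC. In Srxn1 the match TGACCTAGC lies on the opposite strand 28 to 36 bases after the start, and the window holds TGAGTCAGC at -45 to -37. This second match contains the AP-1 motif TGANTCA, which 7.81% of the windows counted hold, and 1.19% of them hold TGANTCAGC. The windows of Nqo1, Sod2 and Gpx3 held none of the 3 motifs, which says only that these letters are not in those 300 bases.

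Each RNA-seq library held 14361717 to 19774665 counts over genes. Levels are given as CPM, counts scaled to a common library size with the edgeR normalisation factors, and changes are log2 of Week 3 over Week 1 with the standard error (SE) and the p-value adjusted over all genes tested. Defining chondrocyte markers were present in every library: all 12 genes of a list with Acan, Col2a1 and Sox9 were counted, and 4 of them rose and none fell. Without Week 1 replicate 2 it was 5 and 3, and with the replicate number as a block 5 and 1. The 10 hypertrophic markers, among them Col10a1, Ihh and Mmp13, all rose, with a summed level of 4407 to 5810 CPM at Week 1 and 22119 to 27886 CPM at Week 3. Week 1 replicate 2 stood apart. Its chondrocyte markers summed to 19227 CPM, against 34441 to 40786 CPM in the other 5 libraries. Adipocyte markers summed to 429 CPM in that library and to 397 CPM in Week 3 replicate 2, against 129 to 180 CPM in the other 4.

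Of the 10 genes, 3 passed the test at an adjusted p under 0.05 as lower at Week 3 (Hmox1, Gclc and Txnrd1) and 1 as higher (Gpx3). Over all 14323 genes tested, 17.8% were called lower and 19.7% higher. The estimate was below 0 for 9 of the 10 genes, with a median log2 change of -0.41 against -0.01 over all genes tested. In 5 genes (the 3 that fell, Nqo1 and Gclm) every Week 3 library lay below every Week 1 library, as in 25.5% of all genes. Gpx3 alone of the 10 lay higher in every Week 3 library, as did 25.9% of all genes, and Nfe2l2, Srxn1, Sod2 and Sod3 overlapped between the weeks. With the replicate number as a block, 4 of the 10 were called lower (21.3% of all genes were), and DESeq2 called 5 (13.0%), with Gpx3 higher in both fits (22.8% and 16.0%). In these bulk pellets, fewer cells of a type and less RNA per cell cannot be told apart. The plot of CPM by gene and library shows these levels.

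**Figure D1:**
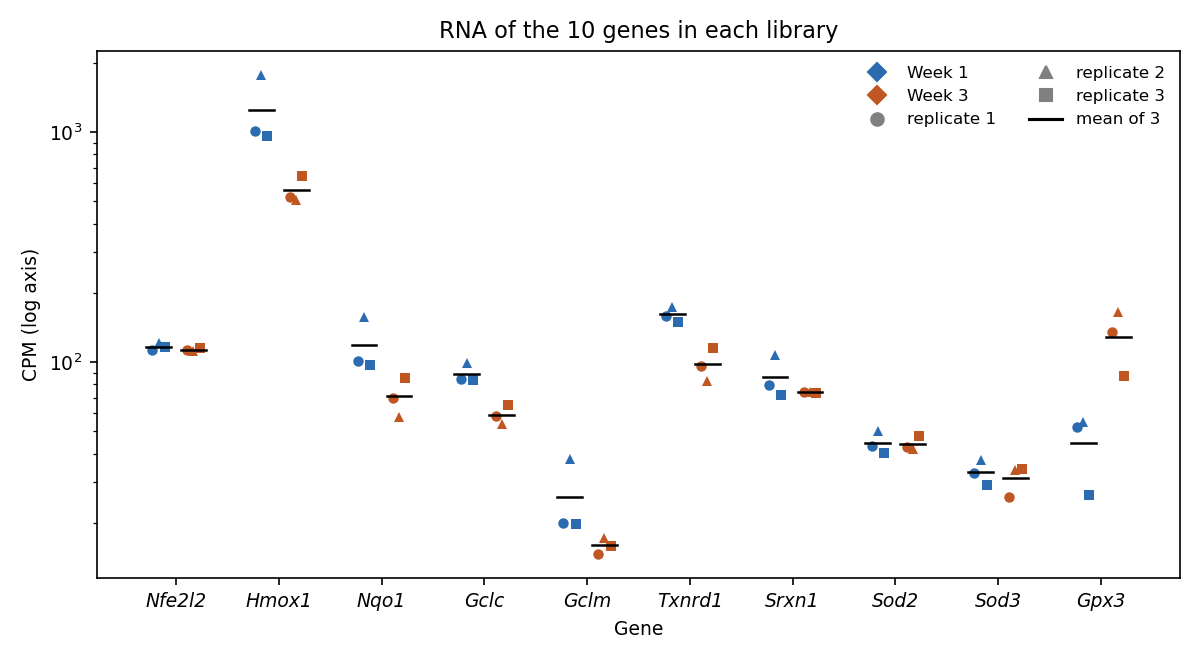
CPM of the 10 genes (log axis) in the 3 Week 1 libraries (blue) and the 3 Week 3 libraries (orange), with the replicate number as the symbol and the mean of each week as a bar. Hmox1, Nqo1, Gclc, Gclm and Txnrd1 have every Week 3 point below every Week 1 point, Gpx3 has the reverse, and the Week 1 triangle (replicate 2) is the highest Week 1 point of each gene.

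Nfe2l2 RNA was level across the pellets. The gene lies at chr2:75675513-75704663 on the minus strand, and its counted transcript (NM_010902) has 5 exons. It measured 113, 121 and 117 CPM in Week 1 replicates 1, 2 and 3, and 113, 112 and 115 CPM in the Week 3 replicates in the same order. All 6 values lay close together, and the weeks overlapped. The change was -0.04 ± 0.05 (log2 ± SE), with an adjusted p of 0.537.

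A list of 16 tested NRF2 regulators held genes that act on the protein, small MAF partners, BACH factors and related factors. Of these, 3 rose and 3 fell (18.8% each way), near the shares over all genes of 19.7% and 17.8%. The median change was 0.02. The counts were 2 and 2 when replicate 1 or 3 of Week 1, or replicate 1 or 2 of Week 3, was left out. Those fits called 15.0% to 15.8% of all genes higher and 12.4% to 12.9% lower. Keap1, the adaptor that marks NRF2 for breakdown, rose from 56.4 ± 2.67 to 67.0 ± 1.79 CPM (mean ± SD, n = 3 each; log2 change 0.25, adjusted p = 0.00992). Its libraries did not overlap between the weeks. Gsk3b, a kinase that marks NRF2 for another ubiquitin ligase, rose, with a log2 change of 0.28 (adjusted p = 0.00498). Its exons share 260 bases with BC031361 on the opposite strand, and the counting is not stated to use strand.

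Dpp3, whose product competes with NRF2 for KEAP1, rose by 0.28 (adjusted p = 0.0294), but leaving out replicate 1 or 3 of Week 1, or replicate 1 or 2 of Week 3, ended that call (adjusted p 0.0865 to 0.102). Maff, a small MAF partner of NRF2, had the largest change among the regulators tested that passed and fell from 53.8 ± 2.87 to 36.5 ± 5.23 CPM (log2 change -0.56, adjusted p = 0.00210). Fbxo30, a ubiquitin ligase subunit, fell, with a log2 change of -0.27 and an adjusted p of 0.00556. Sqstm1, the autophagy receptor p62 that can bind KEAP1, also passed as lower, at -0.18 (adjusted p = 0.0306), and is named because it completes the 6. Of the 3 that fell it had the largest adjusted p, and the fits given above with 2 lower called fewer genes. Bach1, the repressor, averaged 55.5 ± 1.76 CPM at Week 1 and 61.7 ± 1.98 CPM at Week 3, with no overlap and an adjusted p of 0.0676.

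Within each library the ratio of Nfe2l2 to Keap1 counts was 1.90, 2.171 and 2.157 in Week 1 replicates 1, 2 and 3 and 1.69, 1.62 and 1.76 in the Week 3 replicates. All Week 3 ratios lay below all Week 1 ratios, a log2 difference of -0.29. A two-sided exact permutation test gave p = 0.1, the smallest that 3 against 3 libraries allow, and 0.2 after Benjamini-Hochberg adjustment over the 2 ratios computed. Of the pair, Keap1 passed the test across genes and Nfe2l2 did not.

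Glutathione synthesis begins with glutamate-cysteine ligase, made of a catalytic subunit, encoded by Gclc, and a modifier subunit, encoded by Gclm. Gclc (chr9:77754535-77794489, plus strand, NM_010295) measured 84.8, 98.8 and 83.9 CPM in Week 1 replicates 1, 2 and 3 and 58.1, 53.6 and 65.1 CPM in the Week 3 replicates. The weeks were separated by a gap wider than the spread within either of them. Gclc fell from 89.1 ± 8.36 to 58.9 ± 5.80 CPM (mean ± SD, n = 3 each), 1.51-fold, with a log2 change of -0.60 ± 0.09 and an adjusted p of 6.95e-04. Together with Txnrd1 it was called lower under every alternative run.

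Gclm (chr3:122245557-122267215, plus strand, NM_008129) gave 19.9, 37.8 and 19.8 CPM in the Week 1 replicates and 14.7, 17.2 and 15.9 CPM in those of Week 3. The weeks did not overlap, but replicate 2 of Week 1 held nearly as much Gclm RNA as the other Week 1 libraries together. The log2 change was -0.70 ± 0.27, with an adjusted p of 0.0854, so Gclm did not pass. With the replicate number as a block it did, at -0.66 and an adjusted p of 0.0152. Without replicate 2 of both weeks it also did, at a smaller change of -0.38 (adjusted p = 0.00489), as it did in DESeq2 with all libraries (0.00497).

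The ratio of Gclm to Gclc counts was 0.235, 0.382 and 0.236 in Week 1 replicates 1, 2 and 3 and 0.252, 0.322 and 0.245 in Week 3. In both weeks replicate 2 had the highest ratio, and the weeks overlapped. Their log2 difference was -0.03, with an exact permutation p of 1.0, and without Week 1 replicate 2 it was 0.20.

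Slc7a11, the cystine importer that supplies cysteine for glutathione, is a further NRF2 target and went the other way from Gclc. It rose from 10.0 ± 2.004 to 13.3 ± 0.159 CPM (log2 change 0.41, adjusted p = 0.0386). That call was lost when replicate 1 or 3 of Week 1, or any Week 3 library, was left out (adjusted p 0.0796 to 0.132) and in DESeq2 (0.0525). Gss, glutathione synthetase, fell from 51.4 to 38.0 CPM (log2 change -0.44, adjusted p = 7.61e-04), and 494 bases of its exons overlap Gssos2 on the opposite strand. Gsr, which regenerates reduced glutathione, fell, with a log2 change of -0.21 and an adjusted p of 0.0405. The Gsr call was lost when any library other than Week 3 replicate 3 was left out (adjusted p 0.0645 to 0.128), and in DESeq2 (0.0951).

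Hmox1 encodes heme oxygenase, which splits heme into biliverdin, iron and carbon monoxide, and it had the largest fall of the 10 genes. The gene lies at chr8:75093618-75100593 on the plus strand (NM_010442). It measured 1017, 1779 and 963 CPM in Week 1 replicates 1, 2 and 3 and 521, 509 and 643 CPM in the Week 3 replicates. Every Week 3 library lay below every Week 1 library, and Week 1 replicate 2 was far above the others. The mean went from 1253 ± 456 to 558 ± 74.1 CPM (SD, n = 3 each), 2.25-fold lower, with a log2 change of -1.17 ± 0.27 and an adjusted p of 0.0220.

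The Hmox1 call depended on single libraries: without Week 3 replicate 1 the adjusted p was 0.0603, without Week 3 replicate 2 it was 0.10, and with no filter on low counts it was 0.0562. Without replicate 2 of both weeks the change was smaller, at -0.77, and its adjusted p was 0.000488. Macrophages are also known to express Hmox1, and 5 of the 11 tested macrophage and leukocyte markers fell, against 17.8% of all genes. That count was 7 with the replicate number as a block, 1 without Week 1 replicate 1, 3 without replicate 2 of either week, 2 without both of these and 3 with no filter on low counts. Of all genes, these fits called 21.3%, 12.5%, 18.9% (Week 1) and 12.8% (Week 3), 20.2% and 13.2% lower, in that order. In each of them 11 or 12 of the markers were tested. None of the markers was at 0 in any library. By library the sums were 122, 113 and 55.4 CPM in Week 1 replicates 1, 2 and 3 and 78.4, 42.2 and 18.6 CPM in the Week 3 replicates. The part of these cells in the Hmox1 values was not tested.

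Of 6 genes of heme and iron handling, a group put together after their values were seen and with Hmox1 among them, 4 fell and none rose, against 17.8% and 19.7% of all genes tested. Slc48a1, a heme transporter, fell from 329.5 ± 26.6 to 236 ± 13.6 CPM (log2 change -0.48, adjusted p = 6.06e-04), and 32 bases of its exons overlap Hdac7. Fth1, the ferritin heavy chain, fell by 0.45 (adjusted p = 0.00539) and Blvrb, a biliverdin reductase, by 0.55 in log2 units (adjusted p = 0.0254). These 2 were named after their values were seen. Ftl1, the ferritin light chain, was at -0.24 and did not pass (adjusted p = 0.0722). Blvra, the other biliverdin reductase, was at 0.35 and did not pass either (adjusted p = 0.0551), but it was higher in every Week 3 library and passed as higher with the replicate number as a block (0.0334) and without replicate 2 of both weeks (0.51, adjusted p = 0.00162).

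Nqo1 encodes a quinone reductase that is widely used as a readout of NRF2 activity. It lies at chr8:107388225-107403205 on the minus strand (NM_008706) and measured 101, 157 and 97.4 CPM in Week 1 replicates 1, 2 and 3 and 69.9, 57.5 and 85.5 CPM in the Week 3 replicates. The weeks did not overlap, and replicate 2 was the highest Week 1 library and the lowest Week 3 library. The mean was 119 ± 33.7 CPM at Week 1 and 71.0 ± 14.0 CPM at Week 3, with a log2 change of -0.74 ± 0.24 and an adjusted p of 0.0599, which did not pass. Without replicate 2 of both weeks the change was -0.35 with an adjusted p of 0.00354, and in DESeq2 with all libraries the adjusted p was 0.0357. With the replicate number as a block Nqo1 did not pass (-0.73, adjusted p = 0.151).

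Txnrd1 encodes the cytosolic thioredoxin reductase, a selenoprotein that keeps thioredoxin reduced. Its counted transcript (NM_001042523) lies at chr10:82833951-82897724 on the plus strand, and the 4 annotated transcripts share nearly all of their reads, so the counts do not tell which start was used. Txnrd1 measured 159, 174 and 149.6 CPM in the Week 1 replicates and 96.5, 83.1 and 115 CPM in the Week 3 replicates. All Week 3 values lay below all Week 1 values. The mean fell from 161 ± 12.5 to 98.1 ± 15.8 CPM (SD, n = 3 each), 1.64-fold, with a log2 change of -0.72 ± 0.11 and an adjusted p of 0.00178.

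Txn1, the thioredoxin that Txnrd1 reduces, fell less, from 132 ± 11.6 to 108 ± 7.71 CPM (log2 change -0.30, adjusted p = 0.0117). Prdx1, a peroxiredoxin that thioredoxin recharges, averaged 171 ± 43.2 CPM and then 129 ± 1.40 CPM, and its log2 change of -0.41 did not pass (adjusted p = 0.0967). Its Week 1 mean was raised by replicate 2, and without that library its change of -0.18 did pass (adjusted p = 0.0226).

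Srxn1 encodes sulfiredoxin, which rescues overoxidised peroxiredoxins, and its printed window holds 2 marked motifs. The gene lies at chr2:152105524-152111376 on the plus strand (NM_029688). It gave 79.1, 108 and 71.9 CPM in Week 1 replicates 1, 2 and 3 and 73.9, 74.5 and 73.3 CPM in the Week 3 replicates. The 3 Week 3 values were almost the same and lay inside the range of Week 1, where replicate 2 was highest. The change was -0.22 ± 0.14, with an adjusted p of 0.241.

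The superoxide dismutases of the mitochondrion, Sod2, and of the extracellular matrix, Sod3, showed no change that the test could tell from the spread. Sod2 (chr17:13007839-13018119, plus strand, NM_013671) measured 43.0, 50.1 and 40.4 CPM in the Week 1 replicates and 42.7, 41.7 and 47.6 CPM in the Week 3 replicates, a log2 change of -0.02 ± 0.09 (adjusted p = 0.899). Sod3 (chr5:52363804-52369738, plus strand, NM_011435) measured 33.01, 37.4 and 29.2 CPM and 26.0, 33.9 and 34.3 CPM, a log2 change of -0.08 ± 0.12 (adjusted p = 0.650). All Week 3 values of Sod2 lay inside its Week 1 range, and the weeks of Sod3 overlapped in part. The cytosolic enzyme, Sod1, was as level, averaging 121 ± 4.14 CPM and then 119 ± 1.18 CPM, a log2 change of -0.02 (adjusted p = 0.785).

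Gpx3, a secreted glutathione peroxidase that contains selenium, was the gene of the 10 that rose. It lies at chr11:54902854-54910387 on the plus strand (NM_008161). It measured 52.4, 54.7 and 26.5 CPM in Week 1 replicates 1, 2 and 3 and 135, 165 and 86.7 CPM in the Week 3 replicates. Every Week 3 library lay above every Week 1 library, and replicate 3 was the lowest of both weeks. The mean rose from 44.5 ± 15.6 to 129 ± 39.3 CPM (SD, n = 3 each), 2.88-fold, with a log2 change of 1.53 ± 0.38 and an adjusted p of 0.0329. The call was lost when replicate 1 or 2 of either week was left out (adjusted p 0.0791 to 0.101), without replicate 2 of both weeks (1.47, adjusted p = 0.174) and with no filter on low counts (0.0604). Gpx3 did pass with the replicate number as a block (1.55, adjusted p = 2.92e-07) and in DESeq2 (0.00119).

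Levels of different genes were compared per kilobase of counted transcript. At Week 1 Hmox1 stood far above the rest, at 795 ± 289.5 CPM per kilobase (mean ± SD, n = 3), followed by Nqo1 at 76.4 ± 21.7. Nfe2l2 (range over libraries 45.1 to 48.3 CPM per kilobase) and Txnrd1 (41.2 to 48.0) overlapped. Below them Srxn1 (25.6 to 38.3), Gpx3 (17.4 to 35.9) and Gclc (24.5 to 28.8) overlapped with each other. Sod3 (14.3 to 18.3), Gclm (9.54 to 18.2) and Sod2 (10.6 to 13.1) had the lowest means. Gclm overlapped with Sod3 and with Sod2, but Sod3 and Sod2 did not overlap. The lowest Gpx3 value lay inside the ranges of Sod3 and Gclm.

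By Week 3 the order had changed at several places. Hmox1 was still the highest, at 354 ± 47.0 CPM per kilobase, but Gpx3 came next (84.6 ± 25.8; range 57.0 to 108) and lay above Nqo1 (37.1 to 55.1) and Nfe2l2 (44.7 to 45.9), which overlapped. Txnrd1 (22.9 to 31.6) and Srxn1 (26.1 to 26.5) overlapped, as did Gclc (15.6 to 19.0) and Sod3 (12.7 to 16.8). Gclm (7.07 to 8.32) was now the lowest and lay below Sod2 (10.9 to 12.4) in every library.

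The 10 genes shared a pattern among the Week 1 libraries. All 10 were highest in replicate 2, as were 39.4% of all genes tested, and 9 of the 10 had their highest value of all 6 libraries there, as did 19.1% of all genes. Relative to the mean of the other Week 1 libraries, replicate 2 held 1.05 to 1.90 times as much of each gene, with a median of 1.29 against 1.00 over all genes. In the same library chondrocyte markers were low and adipocyte markers high, as given above. Summed adipocyte markers were also high in Week 3 replicate 2, where some of the 10 genes were at their highest of Week 3 and others at their lowest. No adipocyte marker was at 0 in any library, and of the 12 tested 0 passed as higher and 1 as lower. With the replicate number as a block 2 passed as higher and 7 as lower (22.8% and 21.3% of all genes), and without replicate 2 of both weeks 1 and 4 did. The part of these cells or of the library in the values of the 10 genes was not tested. Without replicate 2 of both weeks, 5 of the 10 genes were called lower (Hmox1, Nqo1, Gclc, Gclm and Txnrd1) and none higher, against 20.2% lower and 22.0% higher of all genes tested. The plot of the 10 genes relative to Week 1 shows the pattern by library.

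**Figure D2:**
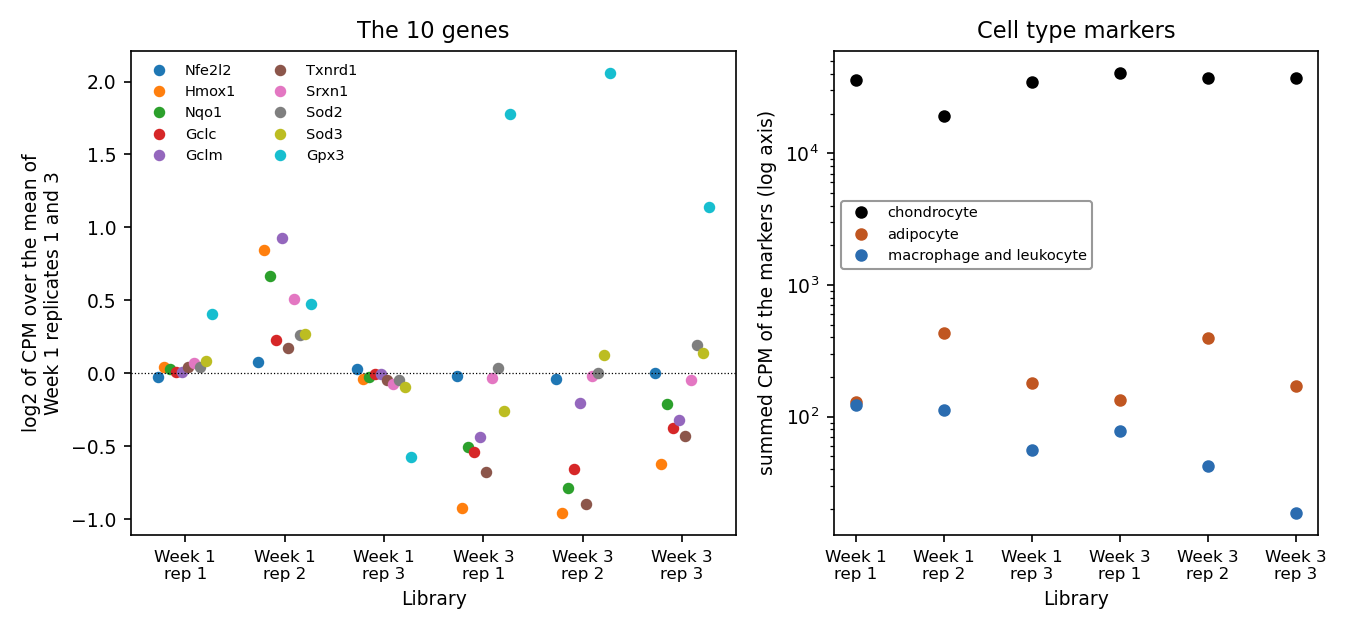
Left, log2 of each gene's CPM in each library over its mean in Week 1 replicates 1 and 3; right, summed CPM of chondrocyte, adipocyte, and macrophage and leukocyte markers on a log axis. In Week 1 replicate 2 all 10 genes lie above 0 while chondrocyte markers are at their lowest (19227 CPM), and Gpx3 lies far above the other genes in all Week 3 libraries.

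Markers of other cell types were few or moved with the week. The 3 tested endothelial markers had estimates below 0 and 2 fell, but 0 passed without Week 1 replicate 1 or without Week 3 replicate 3, and 1 passed without any other single library except Week 1 replicate 3, and in DESeq2. The whole list of 8 summed to 10.3 to 12.8 CPM at Week 1 and 7.14 to 8.57 CPM at Week 3, with Cdh5 and Emcn at 0 in some libraries. The erythroid markers Hbb-bs and Hbb-bt were at 0 in every library, and Hba-a1 and Hba-a2 in some. Fibroblast and synovial markers, whose list includes the collagen I genes that bone-forming cells also express, rose in 4 of 8 genes (5, with 1 lower, under the replicate block), from sums of 14320 to 15326 CPM to 36147 to 42528 CPM. Of 6 smooth muscle and pericyte markers tested, 4 rose, from sums of 128 to 144 CPM to 260 to 335 CPM. Of all genes tested, 19.7% rose and 17.8% fell. The part of these cell types in the changes of the 10 genes was not tested.

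Among 38 tested further NRF2 target genes, 12 fell (31.6%) and 6 rose (15.8%), against 17.8% and 19.7% of all genes tested. The list had a median log2 change of -0.28. The block on replicate number gave 14 and 7, against 21.3% and 22.8% of all genes. The 12 that fell are Abcc1, Akr1b8, Ephx1, Slc48a1, Fth1, Gstp1, Esd, Prdx6, Txn1, Blvrb, G6pdx and Gsr, and the 6 that rose are Aldh1a1, Pir, Gstm2, Idh1, Slc7a11 and Me1. Abcc1, an export pump for glutathione conjugates, fell from 376 ± 27.2 to 252.5 ± 16.05 CPM (log2 change -0.57, adjusted p = 1.92e-04). Akr1b8, an aldo-keto reductase, fell from 33.8 ± 5.73 to 17.4 ± 0.428 CPM (log2 change -0.96, adjusted p = 1.92e-04). Ephx1, the microsomal epoxide hydrolase, fell by 0.48 (adjusted p = 3.99e-04). Aldh1a1, a retinaldehyde dehydrogenase, rose from 10.7 ± 1.51 to 19.5 ± 2.50 CPM (log2 change 0.86, adjusted p = 7.68e-04).

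The count of risers on that list changed when single libraries were left out, as did the share over all genes. It was 3 when replicate 1 or 3 of Week 1 or replicate 2 of Week 3 was left out (15.0% to 15.6% of all genes). Without replicate 2 of Week 1 it was 10 (20.8% of all genes). The number that fell ranged from 9 to 14 over the same fits, against 12.4% to 18.9% of all genes. Without replicate 2 of both weeks 8 rose and 13 fell (22.0% and 20.2% of all genes), and the median was -0.08.

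Other antioxidant enzymes were split. Of 32 tested, 12 rose (37.5%) and 7 fell (21.9%), against 19.7% and 17.8% of all genes, with a median of -0.01. Without replicate 1 or 3 of Week 1, 8 rose, against 15.3% and 15.0% of all genes. Prdx4, the peroxiredoxin of the endoplasmic reticulum, rose from 96.1 ± 1.61 to 136 ± 3.11 CPM (log2 change 0.50, adjusted p = 7.28e-05). Msrb3, a methionine sulfoxide reductase, rose from 53.7 ± 5.14 to 100 ± 9.29 CPM (log2 change 0.90, adjusted p = 5.44e-05), and Idh2, which makes NADPH in mitochondria, by 0.41 (adjusted p = 7.53e-04). Mt1, a metallothionein that binds zinc and copper, fell from 323 ± 38.8 to 151 ± 22.5 CPM (log2 change -1.10, adjusted p = 4.09e-04).

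Cat, the catalase gene, had 107, 169 and 106 CPM in the Week 1 replicates and 85.8, 93.4 and 94.4 CPM in the Week 3 replicates. Its weeks did not overlap, replicate 2 was the highest of Week 1 as in the 10 genes, and its change of -0.48 did not pass (adjusted p = 0.0910). Without Week 1 replicate 2 it passed, at -0.22 (adjusted p = 0.0122). The intracellular peroxidases Gpx1 (log2 change 0.12, adjusted p = 0.184) and Gpx4 (-0.16, adjusted p = 0.162) did not pass, in contrast to the values of the secreted Gpx3. Whether their changes differ from that of Gpx3 was not tested.

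Genes that produce superoxide or hydrogen peroxide were also mixed. Of 13 tested, 3 rose (23.1%) and 2 fell (15.4%), near the 19.7% and 17.8% of all genes. The median of this list was 0.03. The block on replicate number gave 3 and 4, against 22.8% and 21.3% of all genes. Nox4, an oxidase that makes hydrogen peroxide, rose from 12.1 ± 1.02 to 20.7 ± 3.75 CPM (log2 change 0.77, adjusted p = 0.00170). Ncf1, a subunit of the phagocyte oxidase, rose from 2.25 ± 0.743 to 15.6 ± 1.06 CPM (log2 change 2.77, adjusted p = 5.54e-06). Its exons share 302 bases with LOC115490142 on the opposite strand. Another subunit, Ncf4, fell from 1.13 ± 0.234 to 0.282 ± 0.168 CPM (log2 change -1.99, adjusted p = 0.00492). Maob, a mitochondrial monoamine oxidase, rose from 0.933 ± 0.582 to 3.80 ± 1.04 CPM (adjusted p = 0.00344). Ero1a, the oxidase that drives disulfide formation in the endoplasmic reticulum, fell from 3509 ± 126 to 2010 ± 237 CPM (log2 change -0.80, adjusted p = 1.25e-04). The plot of log2 change by gene list sets the 10 genes beside these lists.

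**Figure D3:**
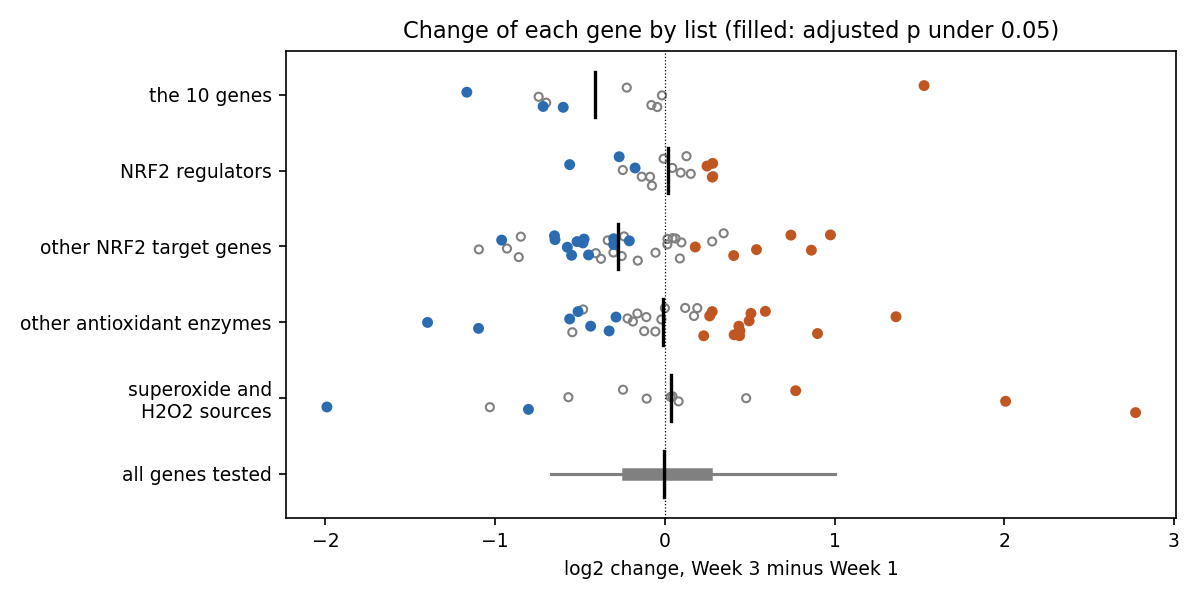
Log2 change from Week 1 to Week 3 of each tested gene of the 10 genes and of 4 pathway lists; filled points have an adjusted p under 0.05 (blue lower, orange higher), the black line is the median of the list, and the bottom bar gives the 25th to 75th percentile (thick) and the 5th to 95th percentile (thin) of all genes tested. The 10 genes have a median of -0.41 with Gpx3 as their single point above 0, and the further NRF2 target genes have a median of -0.28.

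Methylation was read over a promoter window from 1000 bases before to 500 after the start of the counted transcript, at cytosines with at least 10 reads in all 6 ERRBS libraries. The libraries listed 1220867 to 2131385 cytosines and shared 724670, with a median of 17 to 66 reads at the shared cytosines. Of the 10 genes, 8 had shared cytosines in this window, and Nqo1 and Txnrd1 had none at the counted start. In edgeR no promoter of the 8 passed an adjusted p of 0.05, and neither did any of all 12354 promoters tested (0.0%), of which 424 (3.43%) had an unadjusted p under 0.05. With limma none of 12627 promoters passed, and 543 (4.3%) had an unadjusted p under 0.05. Neighbouring cytosines are read by the same fragments, so their values are not independent.

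Of the 8 promoters, 6 had little methylation in both weeks, and those of Sod2 and Gpx3 had more. The median over all promoters was 0.666%, and 86.6% of them were under 5%. Gclc (21 cytosines), Gclm (54), Nfe2l2 (26), Hmox1 (8), Srxn1 (26) and Sod3 (3) had weekly means under 3%. Sod2 (17 cytosines) had 7.23, 5.08 and 4.96% in Week 1 replicates 1, 2 and 3 and 8.72, 4.46 and 4.92% in the Week 3 replicates, which overlapped. Most of that came from 1 cytosine at -737 from the start, which was 70.3% to 79.4% methylated in each of the 6 libraries.

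Gclm had the largest relative difference. Its mean methylation was 0.737, 1.65 and 2.82% in Week 1 replicates 1, 2 and 3 and 0.123, 0 and 0% in the Week 3 replicates, with 929 to 2915 reads per library over the 54 cytosines. Both values of 0% were counts of 0 methylated reads, of 1040 and 1556 reads summed over the cytosines. Taken as independent, these reads would allow a level of up to 0.288% and 0.193%. A fragment is counted at each cytosine that it covers, so these limits are too low. They leave out all error other than that of counting. The weeks did not overlap, the difference was -1.69 percentage points, and the exact permutation p was 0.1, the smallest possible. In edgeR the change in log2 odds was -5.04 ± 1.28 (SE), with an unadjusted p of 0.00433 and an adjusted p of 0.998. The covered cytosines begin at -207 from the start and lie on both sides of the match to TGACNNNGC printed above, whose binding was not measured.

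Gclc and Nfe2l2 were also lower in every Week 3 library, from low values. Gclc had 2.21, 1.06 and 1.07% at Week 1 and 0.889, 0 and 0% at Week 3, with 262 to 1414 reads per library, an exact p of 0.1 and an adjusted p of 0.998. Nfe2l2 had 1.01, 0.934 and 4.66% at Week 1 and 0.888, 0.502 and 0.167% at Week 3 (exact p = 0.1, adjusted p = 0.998). With a minimum of 20 reads per cytosine the Nfe2l2 difference turned from -1.68 to 0.357 percentage points, and without Week 1 replicate 3 it was -0.451. At the minimum of 10 reads, Gclm, Gclc and Nfe2l2 make 3 of 8, and over all promoters 6.41% were lower without overlap and 2.56% higher. In Nfe2l2 the high Week 1 value was that of replicate 3, the library with the fewest reads (514 over the 26 cytosines). A covered cytosine lies inside the printed Nfe2l2 match, at -233 from the start, and was 16.7% methylated over 12 reads in Week 1 replicate 3 and 0% in the other 5 libraries.

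Hmox1 (0.278, 1.39 and 0.962% at Week 1, 0.712, 0 and 0% at Week 3), Srxn1 (0.322, 1.08 and 0.240% and 0.0855, 0.598 and 0.240%) and Sod3 (4.39, 1.03 and 0% and 0.926, 0 and 1.28%) overlapped between the weeks. At the inner start of Txnrd1, looked at after the counted start was found to have no shared cytosine, 22 cytosines had 0.0978, 0.558 and 0.902% at Week 1 and 0, 3.02 and 0.749% at Week 3 (adjusted p = 0.999).

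Gpx3 had the highest level of the 8 promoters, with 12.3, 13.3 and 27.2% in Week 1 replicates 1, 2 and 3 and 18.1, 11.2 and 12.7% in the Week 3 replicates over 5 cytosines and 64 to 186 reads per library. Replicate 3 of Week 1 was highest, the weeks overlapped, and the exact p was 0.6. The 3 CpG sites in capitals in the printed window lie at -80, -77 and -72 from the start. They were between 0% and 17.6% methylated at Week 1, and 0% in every Week 3 library, over 10 to 22 reads per site there. The other 2 sites, 420 and 452 bases after the start, were at 15.2% to 66.7% at Week 1 and 0% to 61.1% at Week 3. The plot of methylation by distance from the start shows the sites of 4 of these genes.

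**Figure D4:**
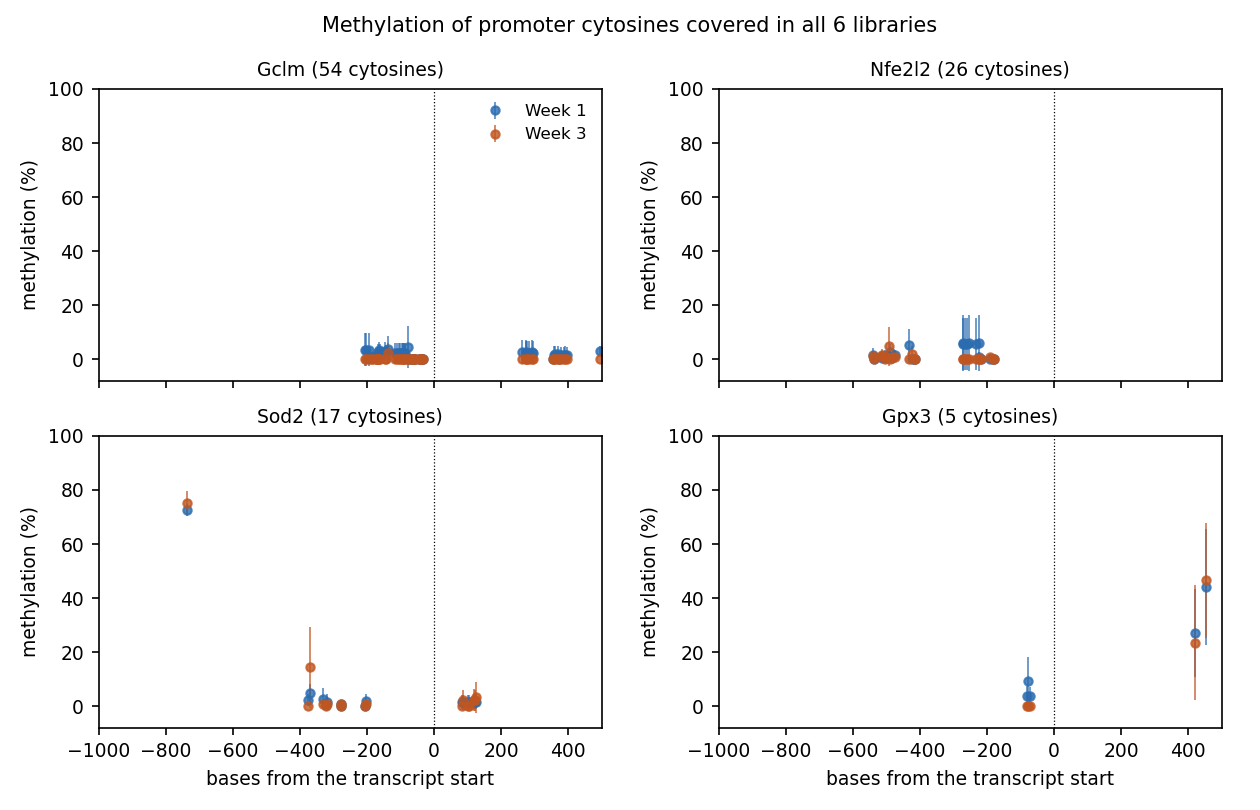
Methylation (%) of each promoter cytosine covered in all 6 ERRBS libraries, against its distance in bases from the transcript start (dotted line), for Gclm, Nfe2l2, Sod2 and Gpx3; points are means of 3 libraries and bars are SD, for Week 1 (blue) and Week 3 (orange). Most sites lie close to 0% in both weeks, and the highest are the Sod2 site at -737 and the Gpx3 sites 420 and 452 bases after the Gpx3 start. The Sod2 site at -369 was at 6.52, 1.01 and 7.14% in the Week 1 replicates and 30.0, 0 and 13.3% in the Week 3 replicates. The Gpx3 site at -77 was at 10.0, 0 and 17.6% in the Week 1 replicates and 0% in every Week 3 library.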

How the data were processed

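RNA-seq and ERRBS libraries of chondrocyte pellets at Week 1 and Week 3 were analysed (3 per week and assay). For RNA-seq the authors deposited a table of unnormalised counts for each library, 1 count for each RefSeq transcript. The submitters' processing notes name CASAVA 2.17, STAR, featureCounts and build mm10, and per the series description adapters were trimmed with Flexbar. For ERRBS the deposited files give, per the file headers, the coverage of each cytosine of a CpG as a count of reads and the percent of those reads that were methylated or not; Bismark is named in the processing notes. For STAR, featureCounts and Bismark no version, and for the counting no strand setting, is given in the sources used here.

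Each table held 30048 transcript accessions, of which RefSeq annotation paired 29476 and GENCODE a further 178 with a symbol. The 394 others were kept as genes of their own. The test across genes used edgeR 4.0.16 under R 4.3.3 (TMM, filterByExpr, robust quasi-likelihood F test, Benjamini-Hochberg adjustment, threshold 0.05), and this test gave every adjusted p for RNA unless another tool is named. The SE is the log2 change divided by the square root of F. Promoters with at least 3 shared cytosines were tested with the same edgeR test on methylated and unmethylated reads, with a term per library, and the mean percent with an exact two-sided permutation test whose smallest p is 0.1. DESeq2 1.42.0, limma 3.58.1, other filters, windows and coverage minimums, and fits without each library were run as alternatives. Both tests were tested on simulated data.

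Same-numbered RNA-seq libraries of the 2 weeks deviated together (correlations of 0.26, 0.38 and 0.19 over genes for replicates 1, 2 and 3). Each library correlated best with its own number. The main fit has the week only, and a fit with the replicate number as a block was run as an alternative. It is given where it changes the call of a named gene or moves a count by over 1.5 times, and for Nqo1 and Gpx3. Intervals and limits cover counting error only, and the limits for counts of 0 take reads at neighbouring cytosines as independent, which makes them too low.

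The 10 genes, the pathway lists and the marker lists were chosen with earlier results of these data known. Named pathway genes were the genes with the smallest adjusted p, up to 5 from each list, plus Keap1, Bach1, Sod1, Cat, Gpx1, Gpx4, Slc7a11, Prdx1, Txn1, Gsr and Nox4. The other Txnrd1 start and the motif TGANTCAGC were added after the data had been seen.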

Additional observations from a re-analysis of the deposited data

How the results depend on the processing

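With no filter on low counts, without replicate 2 of both weeks, and in some fits without a single library, 0 of the 10 genes were called higher, so the number called higher ranged from 0 to 1 without each library in turn. The number called lower ranged from 2 to 4 without each library in turn. Over all genes those fits called 15.0% to 20.8% higher and 12.4% to 18.9% lower. The number called lower was 5 in DESeq2 (13.0% of all genes) and without replicate 2 of both weeks (20.2%). The replicate block changed the call of Gclm and of no other of the 10 genes, and among the other genes named it changed that of Blvra. Nqo1 also passed without Week 1 replicate 3 (adjusted p = 0.0421) or Week 3 replicate 3 (0.0400), and Prdx1 (0.0123) and Cat (0.00604) passed in DESeq2. Over the named genes and all alternatives, 420 RNA values kept direction and call, 15 gained a call, 26 lost one and 7 changed sign. Without each library in turn the log2 change ranged from -0.078 to 0.077 for Sod2, from -0.16 to 0.039 for Sod3 and from -0.041 to 0.0080 for Sod1, and without replicate 2 of both weeks it was 0.12 for Sod2. The log2 difference of the Gclm to Gclc ratio ranged from -0.16 to 0.20, and exact sign-flip tests of the ratios paired by replicate number gave p = 1.0 for it and 0.25 for Nfe2l2 to Keap1.

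Methylation calls were 0 under every alternative run. Same-numbered ERRBS libraries did not deviate together (correlations of 0.046, 0.0089 and -0.00053), and the replicate block gave 0 calls and 427 promoters at an unadjusted p under 0.05. Signs of small methylation changes were unstable. Without each library in turn the log2 odds ranged from -0.35 to 0.23 for Gpx3, -0.80 to 0.15 for Sod2, -1.64 to 0.25 for Sod3 and -1.81 to 0.36 for Srxn1. The difference in mean percent ranged from -6.22 to 1.23 points for Gpx3, -1.07 to 1.06 for Sod2, -1.97 to 0.223 for Sod3 and -0.392 to 0.0268 for Srxn1. A coverage minimum of 20 reads gave Nfe2l2 a log2 odds of 0.94 and a difference of 0.357 points, and Hmox1 0.235 points, as did the window of 250 bases before to 50 after the start for Hmox1. That window gave Sod2 -0.712 points, pooled reads gave it -0.281 points, and limma gave Sod3 a log2 odds of 0.040. Where a value changed, the cause was not tested. With 17 to 66 reads at a median shared cytosine, differences of a few percentage points at single sites are not detectable.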

Other observations

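The gene groups named in these paragraphs, by selenium, by location in the cell and by family, were put together after the values had been seen, so their counts describe and support nothing, and the shares over all genes were 19.7% higher and 17.8% lower. Of 10 selenoprotein genes among the genes above, 5 rose and 1 fell. Selenop, a secreted selenium carrier, had 11.8, 25.1 and 13.5 CPM in Week 1 replicates 1, 2 and 3 and 38.0, 57.7 and 34.2 CPM in the Week 3 replicates (log2 change 1.36, adjusted p = 0.0346), and 412 bases of its exons overlap Ccdc152 on the opposite strand. Like Gpx3 it lay higher in every Week 3 library, and in both weeks replicate 2 was its highest. Selenow rose by 0.44, Msrb1 by 0.44 and Selenof by 0.23, while Txnrd1 was the member of the group that fell. All pellets were kept in a supplement that contains selenium.

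By location in the cell, 4 of 6 enzymes picked from the endoplasmic reticulum rose (Prdx4, Gpx7, Gpx8 and Selenof) and 1 fell (Ero1a). Those 6 leave out Ephx1 and Hmox1, which fell, and Msrb3, which rose. The count therefore does not cover all enzymes of that compartment among the genes above. Gpx7, a peroxidase of that compartment, went from 27.6, 27.7 and 28.7 CPM at Week 1 to 42.2, 41.8 and 35.4 CPM (log2 change 0.51, adjusted p = 0.00116), although 225 bases of its exons overlap Gm32297 on the opposite strand. Of 9 mitochondrial enzymes picked from the lists 2 rose (Idh2 and Msrb2) and 3 fell (Prdx3, Txn2 and Glrx5), and Sod2 was level. Maob, the mitochondrial monoamine oxidase that rose, was not among the 9. The metallothionein gene Mt2 fell as Mt1 did, from 189, 235 and 173 CPM to 86.4, 56.2 and 84.5 CPM (log2 change -1.40, adjusted p = 0.00218).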
